A study of Homo sapiens with 20 samples.

Results

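The 48 listed genes of the Wnt pathway were followed in HEK293 cells: receptors and co-receptors, ligands with their secretion factors, secreted inhibitors, cytoplasmic regulators of beta-catenin, and the TCF transcription factors with their TLE corepressors. Of the 48 genes, 44 had a probe set that named them alone, and the brightest such probe set stood for the gene. Of these, 41 passed the filter of a mean log2 value above 4.5 in at least 1 of the 4 groups and were tested, among 10834 tested genes of 19353 in all. LRP5, DKK3 and NKD1 stayed under the filter in every group. FZD8 and WNT3 had only probe sets naming several genes, and PORCN and TCF7 are not analysed here.

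The series holds 20 Affymetrix U133 Plus 2.0 arrays of total RNA in 4 groups of 5. Flp-In T-REx HEK293 cells, a derivative of the human embryonic kidney line HEK293 that carries the tetracycline repressor, bore a stable, doxycycline-inducible EGFP-tagged human ZFP36. ZFP36 is an RNA-binding protein that binds AU-rich elements in mRNA and promotes mRNA decay. The induced group was this line after 16 h in 1 µg/ml doxycycline, and the mock group was the same line given sterile water. Parental HEK293 cells were treated with doxycycline (parental dox group) or water (parental vehicle group) in the same way. Before treatment they were diluted less at passage and grown for fewer days. Line and earlier culture therefore cannot be told apart between mock and parental cells. Cells were grown in medium with tet-reduced serum, and each replicate was a separate day of culture with pooled flasks. The induced cells were sorted for green fluorescence and the mock cells were sorted for its absence. At harvest the induced flasks were also less confluent than the mock flasks, with more floating and rounded cells. Induction, doxycycline, gate and cell density thus cannot be told apart within this pair. Values are the deposited log2 GCRMA values, which set most unexpressed probe sets to a low floor. A level of 1 probe set cannot be set against that of another.

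In Wnt signalling, secreted ligands that need WLS to leave the cell bind Frizzled receptors together with LRP5 or LRP6, and Dishevelled proteins relay the signal. Without a ligand, a destruction complex of APC, AXIN, GSK3 and casein kinase 1 alpha marks beta-catenin (CTNNB1) for breakdown. With a ligand, beta-catenin builds up and joins TCF factors on DNA in place of TLE corepressors. A beta-catenin-independent branch runs through ROR and RYK receptors and the planar polarity proteins, with WNT5A and WNT5B as typical ligands.

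Across the series, 8 of the 9 measured markers of HEK293 cells were above the filter and 0 of 11 blood cell markers were. Of 14 fibroblast and endothelial markers 2 were above it, COL1A1 and COL3A1. The summed linear signal of those 14 markers was 824 to 993 on the induced arrays and 192 to 240 on the mock arrays, while 2 of the 4 tested housekeeping genes were lower and 1 higher (median difference -0.94). The mean summed signal of the HEK293 markers was 54786 on induced and 42421 on mock arrays, and the 3′ minus 5′ log2 difference of actin was 1.31 and 1.52 (exact permutation p = 0.0476, two-sided, 5 against 5). Their part in the results below was not tested. Poly-A control spikes, added to the RNA, were higher by 0.36 (log2) on induced than on mock arrays (exact permutation p = 0.0238, two-sided, 5 against 5), and hybridization controls by 0.12 (exact p = 0.143). On parental dox arrays the poly-A controls were also 0.36 above parental vehicle arrays (exact permutation p = 0.302), with an SD of 0.63 among the vehicle arrays. The probe set of ZFP36 itself read 4.56 to 5.78 on induced and 4.85 to 5.92 on mock arrays (difference 0.07, exact permutation p = 0.833). On parental arrays that probe set read 2.77 to 4.31 (vehicle) and 3.03 to 4.54 (dox), under every array of the EGFP-ZFP36 line. No source read here says whether it lies in the transgene, so it does not check the induced and mock labels.

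Binding sites of ZFP36 from the study's own PAR-CLIP, which crosslinks a protein to the RNA it touches, fell in 3′ UTRs of several of these genes. Each sequence below lies in an mRNA that was lower in the induced cells. They are given 5′ to 3′ on the transcript strand (T for U), with the pentamer ATTTA and the half-site TATT in capitals, which may overlap each other. Positions are in the hg19 build as the site table gives them. Only a shortened copy of that table was read here, so members without a site in it are not analysed here. It also held 4 3′ UTR sites of FZD3, which did not pass the test below, and for FZD6, which was lower, 1 3′ UTR site with ATTTA and 1 intronic site. Each of these FZD3 sites held TATT, and the first also held ATTTA. The sequences of the FZD3 and FZD6 sites are not shown.
WNT5A, chr3:55500212-55500236, minus strand: ctatacttttaaaaTATTTATTtt
WNT5A, chr3:55503934-55503962, minus strand: ttTATTATTaaTATTataatTATTATTt
ZNRF3, chr22:29453230-29453263, plus strand, bases 2 to 31 of 33: tctcagaaTATTTATTTActaataTATTTA
CTNNB1, chr3:41281595-41281620, plus strand: aacactaattcataatcactctaat
CTNNB1, chr3:41281689-41281712, plus strand: tccaattagtttcctttttaata
GSK3B, chr3:119545108-119545131, minus strand: aaaattaatccatatcttcgggt
The WNT5A and ZNRF3 sites held the half-site, and the CTNNB1 and GSK3B sites held neither motif. Of the 1985 sites read, 1026 lay in 3′ UTRs and were 20 to 67 bases long. Searched on the transcript strand, ATTTA was in 42.5% and TATT in 77.9% of these 3′ UTR sites.

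Of the 41 tested members, 16 were lower and 4 were higher in induced than in mock cells, and 21 did not pass the test. A call was a Bonferroni-adjusted p under 0.01 over all 10834 genes in limma. WNT5B passed the filter through the mock cells alone and TLE2 through the induced cells alone. The direction of any call on these was fixed in advance. Over all tested genes 51.9% were called, 23.1% lower and 28.8% higher, beside 48.8% of the members, 39.0% lower and 9.76% higher. The median log2 difference of the members was -0.50, from -3.37 for ROR1 to 1.69 for TCF7L1, and the median over all tested genes was 0.20. No induced array overlapped a mock array for 28 members, and the same held for 80.0% of all tested genes. At a Benjamini-Hochberg adjusted p under 0.05, 31 members and 87.7% of all genes were called. With the replicate number as a block, 14 members and 34.6% of all genes were called at the Bonferroni threshold. The calls of ROR1, ZNRF3, WNT5B, DVL3, CTNNB1 and TLE2 were then lost. Each array read the pooled RNA of many cells, so fewer cells that express a gene and less RNA per cell cannot be told apart.

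The scaling moved these medians. With each array centred on its poly-A controls, the median over all genes went from 0.20 to -0.16, the lower share of the calls from 44.5% to 65.6%, and the members' median from -0.50 to -0.87. With the hybridization controls the lower share was 49.1% and the members' median -0.62. No called member changed direction under either. In parental cells, doxycycline against vehicle, the poly-A controls moved the median over all genes from -0.003 to -0.36, so such a shift was not particular to the induced cells.

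**Figure D1:**
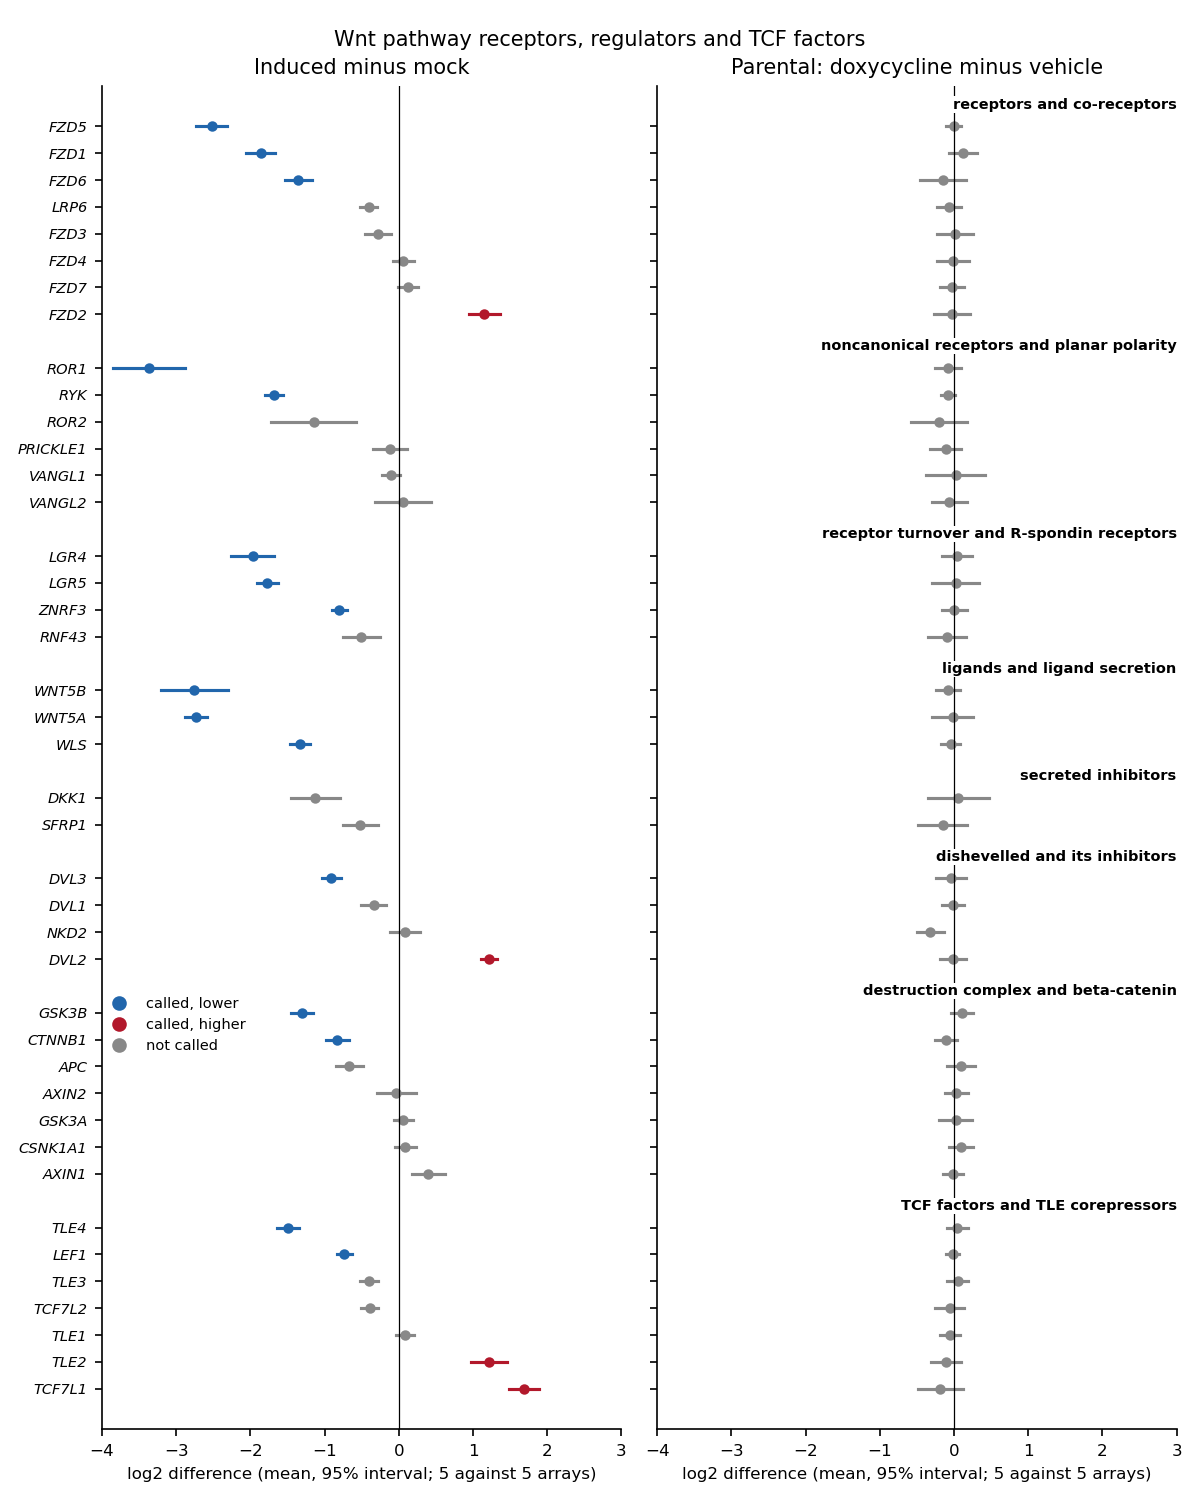
Log2 difference of each tested member, by role, for induced minus mock (left) and parental doxycycline minus vehicle (right), with 95% intervals from limma over 5 against 5 arrays. Blue and red mark calls; ROR1 lies lowest at -3.37 and TCF7L1 highest at 1.69 on the left, where WNT5B and TLE2 are drawn at their measured values, and no member is called on the right.

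WNT5A and WNT5B, the tested ligands among the members, were called lower, beside 23.1% of all tested genes. WLS, the carrier that brings Wnt proteins to the cell surface, was called lower on its brightest probe set. WNT5A, a ligand of the beta-catenin-independent branch, read 7.77, 7.83, 8.07, 7.84 and 8.04 on the induced arrays and 10.57, 10.63, 10.68, 10.62 and 10.72 on the mock arrays. The groups lay far apart, and WNT5A fell by 2.73 (SE 0.07, adjusted p = 3.4e-09), a 6.65-fold lower signal. WNT5B, its close relative, read 3.50 on 4 induced arrays and 3.26 on the other, and 6.63, 6.60, 5.41, 6.40 and 6.02 on mock arrays. Every induced array was thus under 4.5, and the signal was at least 3.27-fold lower (adjusted p = 0.000495). WNT5B passed the filter through the mock cells alone, so only a fall could be called. For WLS the induced arrays read 10.30, 10.14, 10.45, 10.23 and 10.42 and the mock arrays 11.58, 11.65, 11.63, 11.63 and 11.72. WLS fell by 1.33 (SE 0.06, adjusted p = 5.19e-06) on this probe set, but other probe sets of the gene differed, as given below.

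Among the Frizzled receptors, FZD1, FZD5 and FZD6 fell, FZD2 rose, and FZD3, FZD4 and FZD7 did not pass. FZD5 had the largest fall of these, with 7.69, 8.08, 7.53, 7.69 and 7.61 on induced arrays against 10.26, 10.15, 10.20, 10.34 and 10.26 on mock arrays. It fell by 2.52 (SE 0.09, adjusted p = 3.48e-07), a 5.75-fold lower signal. FZD1 read 6.29, 6.64, 6.72, 6.53 and 6.51 in induced and 8.35, 8.47, 8.23, 8.59 and 8.34 in mock cells, and fell by 1.86 (SE 0.09, adjusted p = 4.85e-06). FZD6 read 7.94, 8.11, 8.30, 8.02 and 8.35 against 9.51, 9.46, 9.61, 9.40 and 9.51, and fell by 1.35 (SE 0.08, adjusted p = 6.53e-05). In each of these genes the 5 induced arrays lay under the 5 mock arrays. FZD2 went the other way, at 8.45, 8.33, 8.15, 8.49 and 8.05 in induced and 7.26, 7.23, 7.07, 7.20 and 6.96 in mock cells. It rose by 1.15 (SE 0.09, adjusted p = 0.00145), and lost the call when induced replicate 2 (1.14, adjusted p = 0.0104) or mock replicate 3 (1.13, adjusted p = 0.0107) was left out. The difference was -0.28 for FZD3 (95% interval -0.46 to -0.10), 0.06 for FZD4 (-0.08 to 0.20) and 0.13 for FZD7 (-0.01 to 0.26). The co-receptor LRP6 differed by -0.41 (SE 0.05), with no overlap between groups but an adjusted p of 0.114. LRP5, the other co-receptor, read 2.20 to 2.29 on the induced arrays, under the filter.

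In the beta-catenin-independent branch, the receptors ROR1 and RYK fell, while ROR2 and the planar polarity genes PRICKLE1, VANGL1 and VANGL2 did not pass. ROR1, a receptor tyrosine kinase-like protein that binds WNT5A, read 5.79, 5.34, 5.68, 4.46 and 5.56 on induced arrays and 8.62, 8.51, 8.95, 8.77 and 8.84 on mock arrays. It fell by 3.37 (SE 0.22, adjusted p = 0.000133), the largest difference of the members, and induced replicate 4 was the lowest array at 4.46. RYK, another Wnt receptor with a kinase-like domain, read 9.66, 9.72, 9.88, 9.88 and 9.72 against 11.49, 11.48, 11.51, 11.45 and 11.36. It fell by 1.68 (SE 0.06, adjusted p = 1.41e-07), with a narrow spread in both groups. ROR2 read 4.15 to 5.22 in induced and 5.17 to 6.55 in mock cells, so the groups overlapped, and its difference was -1.15 (95% interval -1.72 to -0.58, adjusted p = 1). Differences were -0.12 for PRICKLE1, -0.10 for VANGL1 and 0.05 for VANGL2, with overlapping groups in each.

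Of the 4 genes of receptor turnover, 3 were called lower, beside 23.1% of all tested genes. LGR4 and LGR5 are receptors for R-spondins, which protect Frizzled receptors from removal, and ZNRF3 and RNF43 are the ubiquitin ligases that remove them. LGR4 read 7.90, 8.20, 8.40, 8.03 and 8.66 on induced and 10.10, 10.10, 10.32, 10.15 and 10.38 on mock arrays, and fell by 1.97 (SE 0.13, adjusted p = 0.00018). LGR5 read 8.56, 8.65, 8.83, 8.57 and 8.65 against 10.27, 10.49, 10.53, 10.43 and 10.39, and fell by 1.77 (SE 0.07, adjusted p = 4.3e-07). ZNRF3 read 8.24, 8.32, 8.28, 8.28 and 8.13 against 9.09, 9.02, 9.00, 9.11 and 9.04, and fell by 0.80 (SE 0.05, adjusted p = 4.75e-05). Each gene kept its 5 induced arrays under its 5 mock arrays. RNF43 differed by -0.50 (SE 0.12, 95% interval -0.76 to -0.25), and its groups overlapped.

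Neither secreted inhibitor passed the test. DKK1, which blocks LRP co-receptors, read 5.68 to 6.43 in induced and 6.94 to 7.45 in mock cells, a difference of -1.13 (SE 0.15, adjusted p = 0.139). It was called with the hybridization controls (-1.24) and with the poly-A controls (-1.49) as the scale. SFRP1, which binds Wnt ligands outside the cell, differed by -0.52 (SE 0.11, adjusted p = 1), with 7.04 to 7.62 against 7.72 to 8.06.

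The Dishevelled genes, whose proteins relay the signal from Frizzled receptors, moved in opposite directions. DVL2 read 10.39, 10.46, 10.49, 10.48 and 10.39 on induced and 9.16, 9.31, 9.26, 9.27 and 9.14 on mock arrays. It rose by 1.21 (SE 0.05, adjusted p = 8.19e-07), whereas DVL3 fell by 0.91 (SE 0.06, adjusted p = 8.95e-05). DVL3 read 8.20, 8.01, 8.15, 8.03 and 8.16 against 8.89, 9.09, 8.99, 9.04 and 9.09. For DVL1 the difference was -0.34 (95% interval -0.51 to -0.18, adjusted p = 1). NKD2, a Dishevelled-binding inhibitor, differed by 0.08 (95% interval -0.13 to 0.29).

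Of the 7 destruction complex and beta-catenin genes, CTNNB1 and GSK3B fell and 5 did not pass. CTNNB1, beta-catenin itself, read 13.17, 13.12, 13.16, 12.86 and 13.09 in induced and 13.98, 13.80, 13.93, 13.80 and 14.02 in mock cells. It fell by 0.83 (SE 0.07, adjusted p = 0.00233), and lost the call in 5 of the 10 fits that left out 1 array, with values from -0.85 to -0.77. GSK3B, a kinase that phosphorylates beta-catenin, read 8.47, 8.47, 8.72, 8.66 and 8.46 against 9.86, 9.84, 9.85, 9.99 and 9.75. It fell by 1.30 (SE 0.07, adjusted p = 1.24e-05), with no overlap. Its paralogue GSK3A differed by 0.06 (95% interval -0.07 to 0.19), but 13 of its 20 arrays shared a value of 8.30 within 0.01, so this probe set gave little graded signal. The scaffold APC differed by -0.67 (SE 0.08, adjusted p = 0.0682), with 10.43 to 10.68 against 11.02 to 11.40, and the scaffold AXIN1 by 0.40 (SE 0.10, adjusted p = 1). The casein kinase gene CSNK1A1 differed by 0.09 (95% interval -0.05 to 0.23).

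AXIN2, a scaffold that is also a widely used beta-catenin target gene, read 7.96, 7.55, 7.67, 7.66 and 7.89 in induced cells. On the mock arrays it read 7.51, 7.53, 7.96, 7.96 and 7.95. The groups overlapped throughout, and the difference of -0.04 had a 95% interval of -0.30 to 0.23.

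Of the 7 tested TCF and TLE genes, LEF1 and TLE4 fell, TCF7L1 and TLE2 rose, and TCF7L2, TLE1 and TLE3 did not pass. TCF7L1, a TCF factor known mainly as a repressor, read 6.78, 6.90, 6.69, 7.20 and 6.72 in induced cells, while the mock arrays read 5.11, 5.21, 5.21, 5.21 and 5.11. It rose by 1.69 (SE 0.09, adjusted p = 1.61e-05). All 5 mock arrays, and 5 of the 10 parental arrays, lay within 0.01 of either 5.11 or 5.21, so this probe set gave little graded signal outside the induced cells. LEF1, a TCF factor known mainly as an activator, read 9.81, 9.71, 9.84, 9.82 and 9.73 against 10.48, 10.50, 10.52, 10.59 and 10.47, and fell by 0.73 (SE 0.04, adjusted p = 7.08e-05). TCF7L2 differed by -0.39 (SE 0.05, adjusted p = 0.153) without overlap. The corepressor TLE4 read 8.67, 8.50, 8.29, 8.44 and 8.35 against 10.01, 9.88, 9.94, 9.98 and 9.91, and fell by 1.49 (SE 0.07, adjusted p = 3.49e-06). TLE2 read 4.87, 4.98, 4.67, 5.25 and 5.23 in induced cells and 3.65 to 3.95 on mock arrays. Since every mock array was under 4.5, TLE2 was at least 1.41-fold higher (adjusted p = 0.00392), and it lost the call in 9 of the 10 fits that left out 1 array. TLE2 passed the filter through the induced cells alone, so only a rise could be called. TLE1 differed by 0.08 and TLE3 by -0.40 (adjusted p = 0.275).

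Doxycycline alone moved no member past the threshold. In parental cells, doxycycline against vehicle called 0 of the 41 members and 0% of all tested genes (limma, Bonferroni-adjusted). The differences of the members ran from -0.32 for NKD2 to 0.12 for FZD1. NKD2 was the only member with an unadjusted p under 0.05, beside 2.22% of all genes, and 0 members had groups without overlap, beside 0.203% of all genes. At a Benjamini-Hochberg adjusted p under 0.05 the count was also 0.

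When the difference with and without doxycycline was compared between the lines, in all 20 arrays, the same 16 members were lower and the same 4 higher as in induced against mock. Over all genes 47.9% were called in this interaction, 22.1% lower and 25.8% higher. Estimates ran from -3.29 for ROR1 (SE 0.24) to 1.87 for TCF7L1 (SE 0.17). FZD6 (-1.21, adjusted p = 0.00797) and CTNNB1 (-0.72, adjusted p = 0.00953) were near the threshold and lost the call in 16 and 19 of the 20 fits that left out 1 array. WNT5B and TLE2 were under 4.5 on all 10 parental arrays, and TLE2 also on all 5 mock arrays. The interaction of WNT5B thus had no room for a fall in parental cells. The rise of TLE2 started from levels under the filter. Neither interaction is a measured size. With the poly-A controls as the scale, 8 members were called (19.5%, 7 lower and 1 higher), beside 13.8% of all genes.

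The mock cells also differed from parental cells without doxycycline, and the mock arrays are shared with the comparison above. In all, 8 members were higher in mock than in parental vehicle cells and TLE4 was lower, 22.0% of the 41 beside 24.0% of all genes. By direction, 13.2% of all genes were higher and 10.9% lower, and at a Benjamini-Hochberg adjusted p under 0.05 the calls were 33 members and 74.9% of all genes. LGR5 differed most, with 6.54, 6.81, 6.81, 6.17 and 6.14 on the parental vehicle arrays and 10.27 to 10.53 on the mock arrays. It was higher by 3.93 in mock cells (SE 0.14, adjusted p = 2.54e-07), a 15.2-fold higher signal. WNT5B read 3.50 to 3.88 in parental vehicle cells, all under 4.5, and was at least 3.27-fold higher in mock cells (adjusted p = 0.0013), losing the call without parental vehicle replicate 4 (2.61, adjusted p = 0.011). As WNT5B passed the filter through the mock cells alone, it could only be called higher here. The secreted inhibitors DKK1 and SFRP1 were higher by 2.30 (SE 0.13, adjusted p = 5.06e-05) and 1.89 (SE 0.11, adjusted p = 4.84e-05). PRICKLE1, a planar polarity gene, was higher by 1.55 (SE 0.09, adjusted p = 4.73e-05). TLE4 read 11.68 to 11.91 in parental vehicle and 9.88 to 10.01 in mock cells, a difference of -1.81 (SE 0.05, adjusted p = 3.18e-08).

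The remaining members, FZD3 (1.10, adjusted p = 0.00736), TCF7L2 (0.82, adjusted p = 0.00556) and DVL3 (0.68, adjusted p = 0.00978), were near the threshold. FZD3 and TCF7L2 each lost the call in 9 of the 10 fits that left out 1 array, and DVL3 in 10 of 10. ROR2 (at least 2.69-fold higher, adjusted p = 0.03), RNF43 (1.19, adjusted p = 0.0137), VANGL2 (-1.31, adjusted p = 0.0166) and NKD2 (-0.67, adjusted p = 0.0391) did not pass. Each was called in 1 of the fits that left out 1 array. ROR2 and RNF43 (1.27) passed without mock replicate 5, VANGL2 (-1.42) without mock replicate 4, and NKD2 (-0.73) without parental vehicle replicate 3. ROR2 passed the filter through the EGFP-ZFP36 line alone, with every parental array under 4.5, so it could only be called higher here.

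Set side by side, the called members had 5 patterns of calls over parental vehicle, mock and induced cells. LGR5 (means 6.50, 10.42 and 8.65), WNT5B (3.58, 6.21 and 3.45) and DVL3 (8.34, 9.02 and 8.11) were higher in mock than in parental cells and lower again after induction. WNT5B passed the filter through the mock cells alone, so the direction of each of its calls was fixed in advance. Its parental vehicle and induced means lie under the filter. The call of DVL3 between mock and parental vehicle cells was near the threshold, as given above. TLE4 stepped down both times, with means of 11.75, 9.94 and 8.45. DKK1, SFRP1, PRICKLE1, FZD3 and TCF7L2 were called between mock and parental vehicle cells alone, with induced means of 6.02, 7.37, 8.60, 9.61 and 11.88. The other 12 members that fell and, as the last pattern, the 4 that rose after induction did not pass between mock and parental vehicle cells. Not passing does not mean equal levels. Without overlap, FZD1 was higher in mock than in parental vehicle cells by 0.92 (adjusted p = 0.0177), and FZD2 differed by -0.61 (adjusted p = 0.137). LGR5 in induced cells, at 8.56 to 8.83, was still above both parental groups, which read 6.14 to 6.81.

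**Figure D2:**
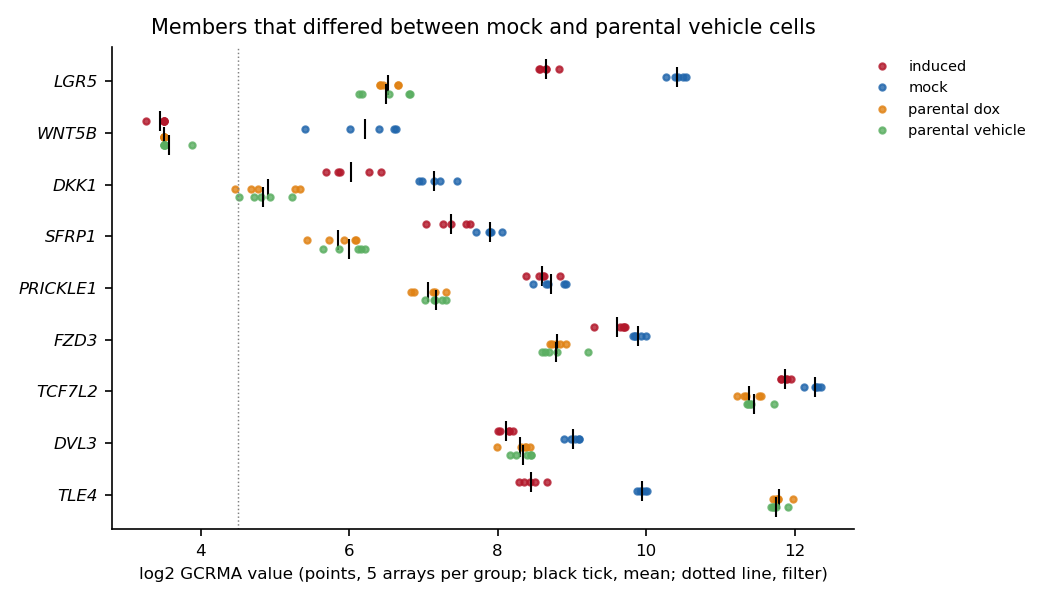
Log2 GCRMA values of the 9 members called between mock and parental vehicle cells, with 5 arrays per group (points), the group mean (black tick) and the filter at 4.5 (dotted). The 8 members called higher have their highest mean in mock cells, which the filter fixed in advance for WNT5B, and TLE4 is highest in the parental groups and lowest in induced cells.

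The probe set that stands for a gene mattered for several members. Each probe set naming a member alone was also tested by itself among all probe sets above the filter, an alternative added after the data were seen. Of 85 such probe sets, 25 were lower and 4 higher in induced than in mock cells, beside 21.8% lower and 22.1% higher over all 18639 tested probe sets. Among 19 members with several probe sets, 2 (WNT5A and RYK) had all of them lower, 6 had none called, 9 had some lower and some not called, and 2 (FZD2 and DVL2) had some higher and some not called. No member had calls in both directions. WNT5A differed by -2.73 and -3.25 on its probe sets, and RYK by -1.68 and -1.77.

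The lowest and highest probe set of a member lay furthest apart for ROR1 (3.73), VANGL1 (1.94), TLE1 (1.94), CSNK1A1 (1.72), WLS (1.69), PRICKLE1 (1.59), FZD2 (1.54) and TLE4 (1.47). ROR1 fell by 3.37 on the brightest probe set, whereas the dimmer probe sets gave -0.38 and 0.36, neither called. WLS fell by 1.33 on the brightest probe set, and gave 0.36 and -0.24 on the others, neither called. TLE4 gave -0.32, -0.13 and -0.02 on its dimmer probe sets, none called, and the dimmer probe set of FZD2 gave -0.39, not called, against its rise of 1.15. In the reverse case, a dimmer probe set was lower although the brightest was not called: VANGL1 (-2.04), TLE1 (-1.86), PRICKLE1 (-0.89) and CSNK1A1 (-1.30 and -1.04). PRICKLE1 and CSNK1A1 also had a dimmer probe set that differed the other way (0.70 and 0.42), neither called. CTNNB1 (-1.36) and GSK3B (-1.54) had another lower probe set and one that was not called (-0.19 and -0.25). Which transcript ends the probe sets read was not examined here. With the mean of all probe sets in place of the brightest, FZD1 (-0.89), FZD2 (0.38), WLS (-0.40), LEF1 (-0.29) and TLE4 (-0.49) lost the call, and FZD3 (-0.60) and VANGL1 (-0.81) gained one. FZD1 and LEF1 had only 1 probe set above the filter. Their means took in probe sets under it, so their lost calls show no disagreement between expressed probe sets.

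Further genes of the pathway were taken from fixed lists, with limma over all genes as above. Over all tested genes 23.1% were lower and 28.8% higher in induced against mock cells, with a median difference of 0.20. Of 17 tested beta-catenin/TCF target genes, 5 were lower, 1 was higher and 11 were not called in this comparison, with a median difference of -0.50. This list holds 6 tested members, of which LEF1, ZNRF3 and LGR5 were lower. CCND1, the cell cycle regulator cyclin D1, had a mean of 8.91 in mock and 4.19 in induced cells, where 3 of 5 arrays were under 4.5, so its signal was at least 21.3-fold lower. The transcription factor gene SOX9 fell by 1.59 (SE 0.08). PPARD, a nuclear receptor gene, rose by 1.40 (SE 0.07). MYC, at -0.51, was not called.

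Of 12 tested receptors and extracellular modulators outside the members, 4 were lower and 5 higher, beside 23.1% lower and 28.8% higher over all tested genes. GPC4, a glypican at the cell surface, differed by -2.57, KREMEN1, a receptor of DKK1, by -1.99 and CELSR1, a planar polarity cadherin, by -0.61. WIF1, a secreted inhibitor, was under 4.5 on all induced arrays and at least 2.89-fold lower. CELSR3 rose by 1.96 and PTK7, a co-receptor, by 0.89. PRICKLE2 had a mock mean of 4.41, under the filter, and was at least 1.99-fold higher. RSPO3, an R-spondin ligand of LGR receptors, passed the filter through the induced cells alone (mean 4.76, mock mean 2.35) and was at least 1.20-fold higher. Of 15 measured other WNT ligands, WNT10B alone passed the filter, and it was not called (0.60).

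Of 22 other cytoplasmic regulators, 3 were lower and 5 higher, beside the same 23.1% and 28.8% over all tested genes. FBXW11, a subunit of the ubiquitin ligase that recognizes phosphorylated beta-catenin, fell by 2.17 (SE 0.07), while its paralogue BTRC rose by 1.04 (SE 0.07). TNKS, a tankyrase that promotes AXIN breakdown, differed by -0.87 and PPP2R5E by -0.68. CSNK1G2, FRAT1, a GSK3-binding protein, and CSNK2A1 rose by 1.09, 1.01 and 0.70. Of 16 nuclear cofactors, 2 were lower and 4 higher, with a median of 0.12 beside 0.20 over all tested genes. The histone deacetylase gene HDAC1 differed by -1.24 and the kinase gene NLK by -0.73. TBL1X, PYGO2, CBY1 and CTBP1 rose by 1.97, 1.74, 1.43 and 0.53.

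**Figure D3:**
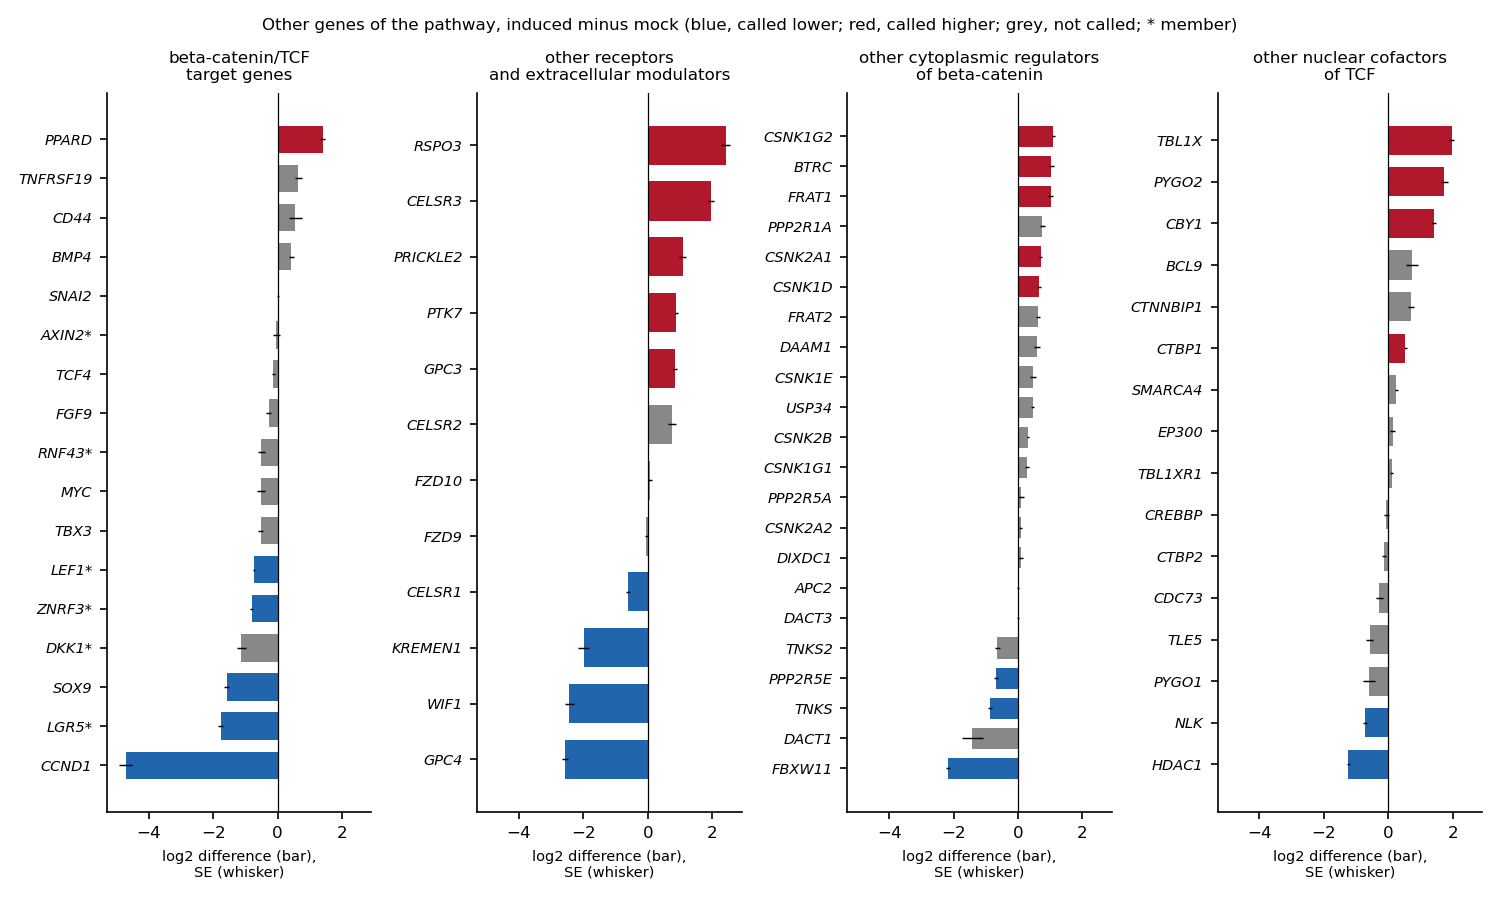
Log2 difference, induced minus mock, of the tested genes in 4 other lists of the pathway (bars, with SE as whiskers; blue called lower, red called higher, grey not called; an asterisk marks a member). Each list holds calls in both directions, and the bars of CCND1, WIF1, PRICKLE2 and RSPO3 show measured differences from a group whose mean was under 4.5.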

How the data were processed

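The authors normalized the 20 arrays with GCRMA and deposited log2 values (2.19 to 16.6). Its version, its settings and any batch are not given in the sources used here. Probe sets were named with the platform's gene annotation: 38076 of 50441 named 1 gene, 1423 several and 10880 none, and 62 were controls. Groups came from the sample labels. Every gene whose mean passed 4.5 in any group entered lmFit and eBayes of limma 3.58.1 (R 4.3.3), 5 arrays against 5, or all 20 for the interaction, with Bonferroni-adjusted p under 0.01. Where every array of a member's lower group, or the lower group's mean for other genes, was under 4.5, the fold was taken against 4.5 and is a bound. Single values were compared by exact permutation (scipy 1.17.1). Figures used matplotlib 3.10.9. The code was tested on simulated data.

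The members and lists were chosen with earlier results of these data known. All members could be named, and from each other list up to 4 called rises and 4 called falls with the largest change. Alternatives were the filter, the probe set, scaling on control spikes, a separate spread per group, a replicate block, all arrays in one model, Benjamini-Hochberg adjustment and leaving out each array. Replicate arrays correlated at 0.991 to 0.997. Arrays give no counts, so their number limits the precision.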

Additional observations from a re-analysis of the deposited data

Results flagged for a closer look

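The response to doxycycline differed between the lines for 20 members (limma interaction over all 20 arrays, Bonferroni-adjusted p under 0.01). The estimates were lower in the EGFP-ZFP36 line for ROR1 (-3.29), WNT5A (-2.71), WNT5B (-2.68), FZD5 (-2.52), LGR4 (-2.01), FZD1 (-1.98), LGR5 (-1.80), RYK (-1.60), TLE4 (-1.54), GSK3B (-1.41), WLS (-1.29), FZD6 (-1.21), DVL3 (-0.87), ZNRF3 (-0.80), CTNNB1 (-0.72) and LEF1 (-0.71). They were higher for TCF7L1 (1.87), TLE2 (1.32), DVL2 (1.23) and FZD2 (1.18). WNT5B and TLE2 were under 4.5 on all parental arrays, and TLE2 also on all mock arrays, so their values are no measured size.

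In 18 of 164 group levels of tested members, a single array lay apart from the other 4, by a gap that took more than 0.71 of the group's range. Chance alone flags about 1 group in 20. By group, 8 of the 18 were in parental dox, 5 in induced, 4 in parental vehicle and 1 in mock. In the induced group the ratios were 0.84 for FZD3 and 0.75 for LRP6 (replicate 3 low in both), 0.74 for CTNNB1 (replicate 4 low, 12.86), and 1.00 for WNT5B and GSK3A (replicate 5). In the mock group GSK3A had a ratio of 1.00 (replicate 3 low, 8.02).

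In the parental dox group the ratios were 0.79 for FZD6, 0.73 for ROR1, 0.73 for VANGL1, 0.71 for DVL3, 0.79 for AXIN1, 0.94 for GSK3A, 0.83 for TCF7L1 and 0.76 for TLE4. In the parental vehicle group they were 0.87 for ROR2, 0.96 for WNT5B, 0.81 for TCF7L1 and 0.87 for TCF7L2. In 7 of the 18 the other 4 arrays lay within 0.05 of each other, among them WNT5B and GSK3A, whose probe sets shared 1 value on 12 and 13 of the 20 arrays.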

How the results depend on the processing

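Leaving out each array in turn gave 17 to 20 called members in induced against mock, 15 to 16 lower and 2 to 4 higher, with a median of -0.56 to -0.43. It gave 6 to 8 in mock against parental vehicle (5 to 7 higher, 1 to 2 lower), 18 to 20 in the interaction (14 to 16 lower, 4 higher) and 0 in parental cells.

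In induced against mock, 2 members were higher without a filter, and 2 with the mean of all probe sets. A separate spread per group called 9 (8 lower, 1 higher), beside 26.8% of all genes, and Benjamini-Hochberg adjustment 31 (26 lower). The median was -0.40 without _s_at and _x_at probe sets, which can match several transcripts, -0.62 with hybridization and -0.87 with poly-A controls. In mock against parental vehicle, 5 were called without a filter (4 higher), 2 with a separate spread (1 higher; 8.95% of all genes), 33 with Benjamini-Hochberg adjustment (18 higher, 15 lower) and 14 with all arrays in one model (3 lower). With a filter at 6, and with hybridization controls, 2 were lower. In the interaction, the mean of all probe sets gave 2 higher, hybridization controls 13 called (1 higher; 3249 of all 10834 genes) and poly-A controls 8 (7 lower, 1 higher). Without those probe sets WLS, called lower, turned to 0.36 (0.34 in the interaction). Directions also turned where only the alternative made a call: CSNK1A1 (-1.04) without those probe sets, and TLE1 (-0.38, interaction) with the mean of probe sets. The causes were not tested beyond the probe set used.

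The methods describe pairs of treated and untreated cells on separate days, but no source says that the number marks the day, and the numbers were not shown to pair the samples. Deviations of same-numbered induced and mock arrays correlated at 0.015 to 0.22, over 0.1 for 4 of 5, and 3 of 5 correlated best with their own number. With the replicate number as a block, 14 members were called in induced against mock (11 lower, 3 higher; 34.6% of all genes), 4 in mock against parental vehicle (3 higher; 9.53%), 13 in the interaction (1 higher; 38.1%) and 0 in parental cells. The calls of ROR1, ZNRF3, WNT5B, DVL3, CTNNB1 and TLE2 were lost in the first of these, those of FZD3, PRICKLE1, WNT5B, DVL3 and TCF7L2 in the next, and those of FZD2, FZD6, ZNRF3, DVL3, CTNNB1, TCF7L1 and TLE2 in the interaction.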
